A study of Mus musculus with 24 samples.

Results

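The circadian clock genes described here are Arntl, Npas2, Clock, Per1, Per2, Per3, Cry1, Nr1d1, Nr1d2 and Dbp. They were found on the array by gene name among the non-control probes, and these 10 of 34797 gene names were read by 13 of 55681 probes. Per1, Nr1d2 and Dbp each had more than 1 probe, and each gene is reported by its brightest probe over all arrays. RNA of whole mammary gland was hybridised to 24 one-colour Agilent arrays, 3 for each of 8 groups with replicates A, B and C. All mice were females of the inbred strains BALB/c and SPRET/EiJ, kept in 12 h of light and 12 h of dark, and were irradiated or sham-treated at 8 to 9 weeks of age. LDIR groups received 1 whole-body dose of 10 cGy of X-rays and sham groups did not. BALB/c glands were taken 2, 4 and 8 weeks later and SPRET/EiJ glands 4 weeks later. The sources used here give no hour of collection, so the hour and the group cannot be told apart. In whole tissue, fewer cells of a type and less RNA per cell cannot be told apart either.

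The circadian clock is a feedback loop of transcription. The activators Arntl (also called Bmal1), Clock and its relative Npas2 bind E-boxes and drive the Per and Cry repressors, the nuclear receptors Nr1d1 and Nr1d2 (Rev-erb alpha and beta) and the output factor Dbp. Nr1d1 and Nr1d2 in turn repress Arntl through RevErb/ROR elements, and Dbp acts through D-boxes, so that in most tissues Arntl and Npas2 peak at the opposite phase of the day from Nr1d1, Dbp and Per3.

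These elements can be seen in the promoters of some members, and the 4 members with a match are shown. Sequences are from RefSeq, build GRCm38.p6, and capitals mark the motif. A window of 250 bases before to 50 after the start was given for 9 of the members; Per2 had none. Searched on both strands were GTAGGTCA and GTAGGTTA (RevErb/ROR element, together in 0.925% of 32851 promoter windows), CACGTG (E-box, 7.15%) and TTATGTAA (D-box, 0.938%). Of 13 windows of the members, 5 held a match. No match overlapped another, and a match describes letters only.
Arntl, chr7:113207411-113207511, plus strand: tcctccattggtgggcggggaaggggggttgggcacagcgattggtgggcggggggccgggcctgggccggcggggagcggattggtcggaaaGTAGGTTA
Arntl, chr7:113207529-113207558, plus strand: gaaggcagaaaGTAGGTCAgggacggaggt
Per3, chr4:151044764-151044910, minus strand: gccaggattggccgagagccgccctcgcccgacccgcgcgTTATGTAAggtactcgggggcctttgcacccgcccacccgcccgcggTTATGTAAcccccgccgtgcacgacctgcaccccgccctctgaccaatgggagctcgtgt
Per1, chr11:69098743-69098842, plus strand: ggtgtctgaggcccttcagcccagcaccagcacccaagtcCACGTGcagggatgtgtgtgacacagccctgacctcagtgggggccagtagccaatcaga
Cry1, chr10:85185055-85185154, minus strand: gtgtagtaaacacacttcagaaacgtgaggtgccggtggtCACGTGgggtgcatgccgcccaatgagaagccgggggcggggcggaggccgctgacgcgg
The pair of Arntl elements lay at -7 and 30 bases from its start at 113207511. From its other start, at 113207465, GTAGGTTA lay at 40 bases, so both elements lie after that start. Per3 held its D-boxes at -205 and -158. The E-box lay at -166 in Per1 and at -60 in Cry1. None of the windows of Dbp, Nr1d1, Nr1d2, Npas2 or Clock held these letters.

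Of the 24 arrays, 3 stood apart in lymphocyte and white adipocyte markers and bear on what follows. The summed level of 5 lymphocyte markers (Cd3e, Cd3g, Ms4a1, Cd79a and Ptprc, linear units relative to the 75th percentile) was 73.7 in BALB/c sham 8wk A, 95.9 in BALB/c LDIR 8wk B and 72.4 in SPRET/EiJ LDIR 4wk A. It ranged from 6.20 to 15.8 in the 21 other arrays. The same 3 arrays had the lowest summed level of 6 white adipocyte markers, 882, 706 and 678, against 1295 or more elsewhere. Their part in the results was not tested, and main comparisons that hold them are also given without them. Skeletal muscle markers varied too, with a summed level of 5 markers from 0.42 to 675. It was highest in BALB/c LDIR 8wk C (675), sham 2wk C (434) and LDIR 2wk A (233). No set of arrays was left out for these muscle markers, and their part was not tested. Levels below are log2 values relative to the 75th percentile of the array, and levels of different genes come from different probes and are not compared with each other. Every array detected 12 of the 13 probes above its background, whereas the Npas2 probe was detected on 13 arrays.

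Arntl, the core activator, differed most between the BALB/c ages. Its level in sham glands at 2 weeks was -2.27, -2.99 and -3.11 in replicates A, B and C, and at 4 weeks -3.01, -2.36 and -2.71. In LDIR glands it was -2.48, -2.93 and -2.51 at 2 weeks and -2.37, -2.76 and -2.40 at 4 weeks. These 12 arrays spanned less than 1 unit. At 8 weeks, sham glands gave -0.74, -0.68 and -2.50 and LDIR glands -1.14, -0.25 and -2.26. Replicates A and B of both treatments were thus well above every younger BALB/c array, whereas both C replicates lay close to the younger arrays. Sham C was within their range, and LDIR C, at -2.265, was just above their highest value of -2.271. Of the 4 high arrays, sham B and LDIR A had lymphocyte marker sums of 6.9 and 7.0, within the range of the other arrays. In SPRET/EiJ, Arntl was -2.97, -3.31 and -3.86 in sham and -0.47, -4.51 and -3.83 in LDIR glands, so LDIR A stood 3.36 above the median of the other 5.

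**Figure D1:**
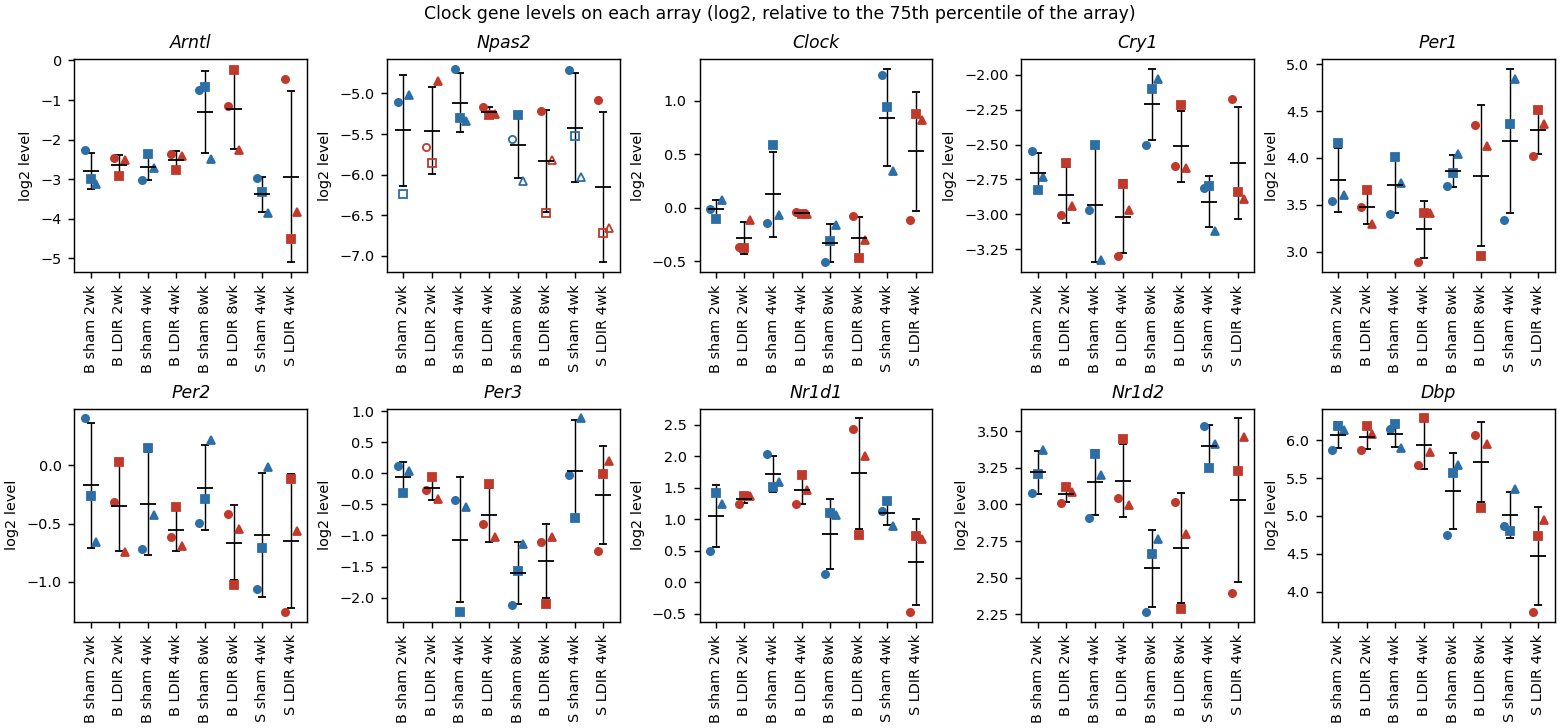
Level of each clock gene on every array (y axis, log2 relative to the 75th percentile of the array) by group (x axis; B, BALB/c; S, SPRET/EiJ). Circles, squares and triangles are replicates A, B and C, blue is sham and red LDIR, open symbols were not well above background, and bars are mean ± SD (n = 3); Arntl reached -0.25 in the 8-week glands but stayed at or under -2.27 in younger BALB/c glands.

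Npas2, the other member of the positive limb, did not follow Arntl at 8 weeks. Its level was -5.56, -5.27 and -6.08 in sham and -5.21, -6.48 and -5.81 in LDIR glands at 8 weeks, overlapping the range of -6.25 to -4.69 at 2 and 4 weeks. Only 1 of 3 arrays in each 8-week group was well above background, so these values lie near the limit of detection. Clock, the partner of Arntl, ranged from -0.51 to 0.59 in BALB/c and from -0.11 to 1.24 in SPRET/EiJ. Cry1, a repressor, lay between -3.32 and -2.50 at 2 and 4 weeks and between -2.66 and -2.03 at 8 weeks.

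Among the negative limb genes, Dbp, a transcription factor that passes the rhythm on to output genes, lay between 5.67 and 6.29 in all 12 BALB/c arrays of 2 and 4 weeks. At 8 weeks it was 4.75, 5.57 and 5.67 in sham and 6.08, 5.11 and 5.96 in LDIR glands. The lowest of each group was the array with high lymphocyte markers. Nr1d2, a repressor of Arntl, was 2.27, 2.66 and 2.76 in sham and 3.02, 2.29 and 2.80 in LDIR glands at 8 weeks, against 2.91 to 3.45 in the younger arrays. Per3, a period gene, was -2.12, -1.57 and -1.13 in sham and -1.11, -2.10 and -1.03 in LDIR glands at 8 weeks. All younger BALB/c arrays but sham 4wk B, at -2.23, had Per3 at -1.02 or above. Nr1d1 was 0.13, 1.10 and 1.06 in 8-week sham but 2.43, 0.75 and 2.00 in 8-week LDIR glands, so here the treatments differed in order while their ranges overlapped. Per1 spanned 2.89 to 4.35 and Per2 -1.03 to 0.40 in BALB/c, with all ages overlapping.

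To place each array on 1 axis, the mean of Arntl and Npas2 minus the mean of Per1, Per2, Per3, Nr1d1, Nr1d2 and Dbp was taken and set to 0 at its median over the 24 arrays. This limb score is a description and was not tested. At 2 and 4 weeks BALB/c arrays ranged from -0.86 to 0.49. At 8 weeks sham glands scored 1.64, 1.30 and -0.23 and LDIR glands 0.59, 1.47 and -0.10. SPRET/EiJ sham glands scored 0.36, -0.30 and -1.35 and LDIR glands 2.19, -1.64 and -1.27, so that SPRET/EiJ held both the highest and the lowest array of the series. The 3 arrays with high lymphocyte markers ranked 1, 2 and 3. Sham 8wk B and LDIR 8wk A, whose sums of those markers lay within the range of the other arrays, ranked 4 and 5. Their negative limb means were 1.89 and 2.39, against 1.90 to 2.40 in the younger BALB/c arrays. The high score of LDIR 8wk A thus came from its positive limb, and its negative limb was not low. With Arntl alone as the positive limb, the 5 highest arrays were these same 5, from 1.10 to 3.06. BALB/c LDIR 8wk B then ranked 1, at 3.06, and SPRET/EiJ LDIR A ranked 2, at 2.97. Npas2, part of the positive limb, was not well above background on BALB/c LDIR 8wk B. The same held for SPRET/EiJ LDIR B, LDIR C and sham C, the lowest arrays by the limb score.

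**Figure D2:**
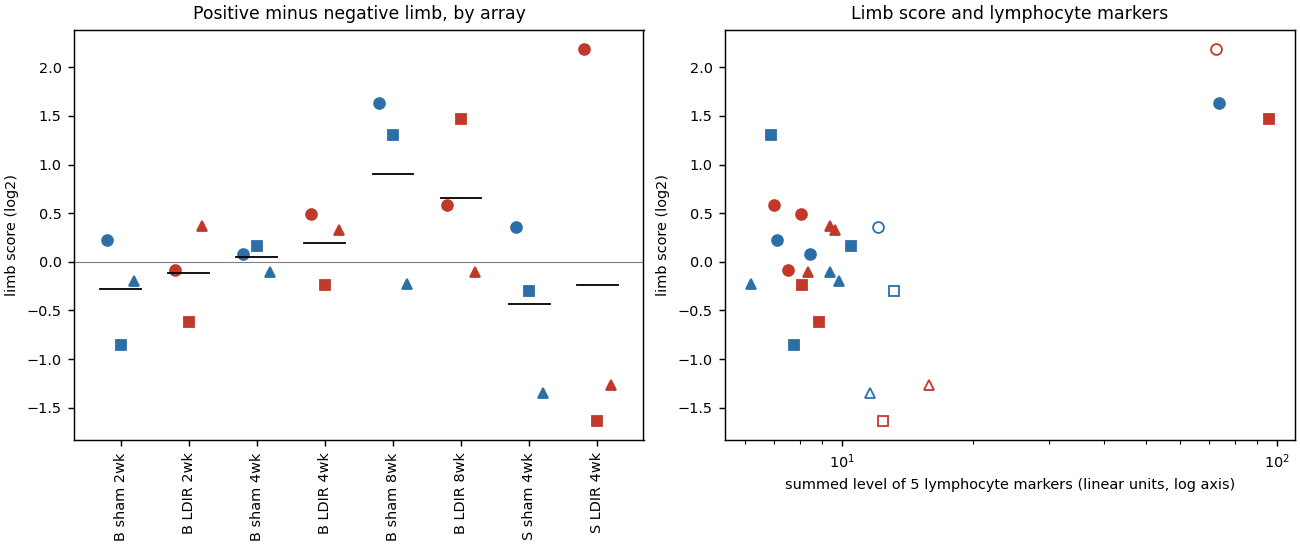
Left, limb score (y axis, log2) of every array by group, with the group mean as a line; right, the same score against the summed level of 5 lymphocyte markers (log axis). Blue is sham and red LDIR, circles, squares and triangles are replicates A, B and C, and open symbols on the right are SPRET/EiJ; the 3 arrays at 72.4 to 95.9 on the marker axis are the 3 with the highest score.

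Low-dose irradiation moved none of the clock genes past the thresholds of the study's methods (limma, unadjusted p under 0.05 and more than 1.5-fold). In BALB/c at 2 weeks 0 of 10 members passed, where 3.05% of all probes did, and the largest difference was -0.29 for Per1. At 4 weeks 0 of 10 passed against 4.83% of all probes, with Per1 at -0.48 ± 0.24 (SE, n = 3 per group). Without sham 4wk A, Per1 passed, at -0.63. At 8 weeks 0 of 10 passed against 1.92%, and Nr1d1 was 0.96 ± 0.53 higher in LDIR glands. Without LDIR 8wk B, Nr1d1 passed, at 1.45, and without sham 8wk A it was 0.64. When all 24 arrays were fitted together with a slide block, Nr1d1 passed too, at 1.67 (adjusted p = 0.994, limma), where 3.07% of probes did. In SPRET/EiJ 0 of 10 passed against 2.21%, with Nr1d1 at -0.78 ± 0.38. Without LDIR A, the displaced array, Nr1d1 was -0.39 ± 0.22. Npas2 then met the thresholds, but it was not well above background on either remaining LDIR array, so no size is given. No member had an unadjusted p under 0.05 in the 4 comparisons with all arrays (smallest, 0.079, limma), and a p that misses the threshold does not show that irradiation left these genes unmoved. Differences between the effects of irradiation in the 2 strains and between ages had adjusted p of 0.762 or more for every member (limma), where 0% of probes passed. The 1 unadjusted p under 0.05 was that of Nr1d1 between 8 and 4 weeks, a difference of 1.20 ± 0.55.

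**Figure D3:**
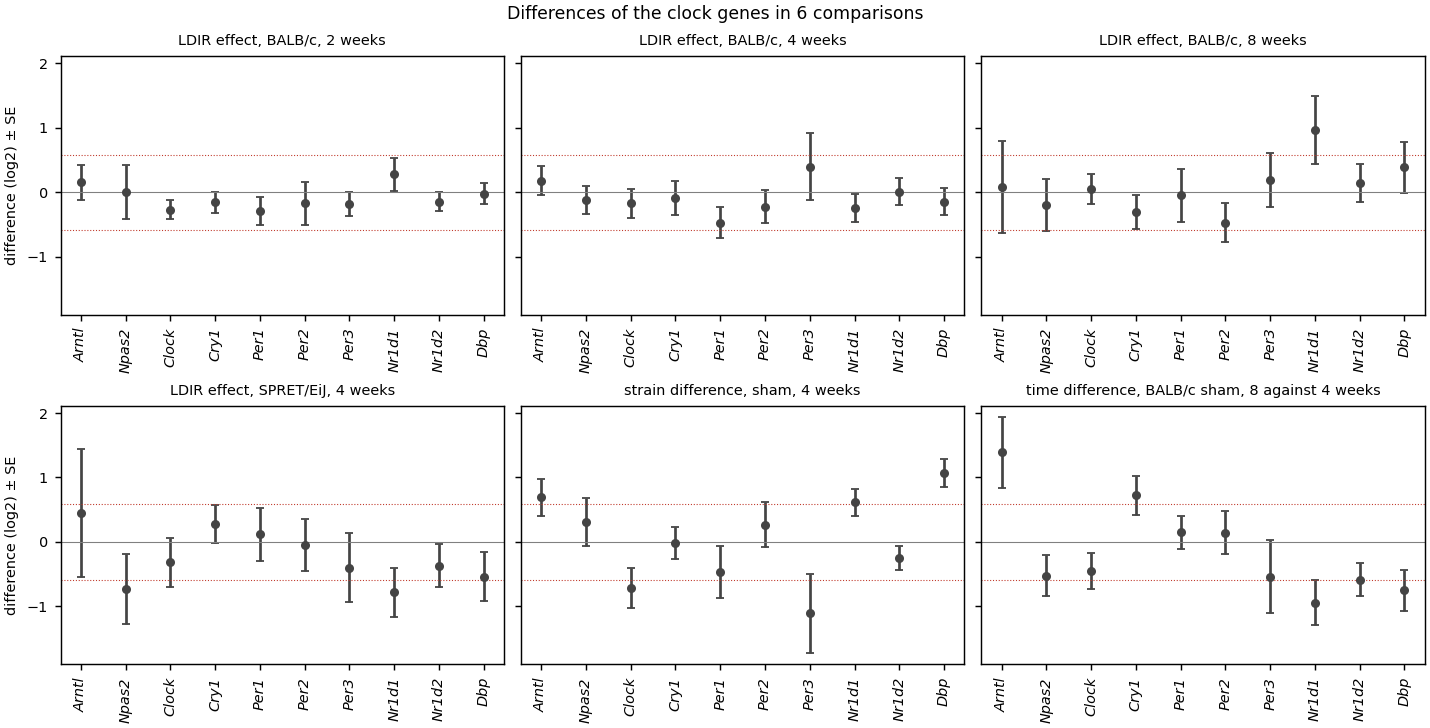
Difference (y axis, log2, ± SE, n = 3 per group) of each clock gene in 6 comparisons: LDIR minus sham in each strain and week, BALB/c minus SPRET/EiJ in sham glands, and 8 minus 4 weeks in BALB/c sham glands. Dotted lines mark 1.5-fold; Arntl at 1.39 and Nr1d1 at -0.95 passed the thresholds in the comparison of 8 with 4 weeks, and no member did after irradiation.

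Between the strains, sham glands at 4 weeks differed in Dbp by one rule and one probe. BALB/c exceeded SPRET/EiJ by 1.07 ± 0.22 (SE), from levels of 6.14, 6.21 and 5.89 against 4.87, 4.80 and 5.36, which did not overlap. The adjusted p was 0.018 (limma), and 18.8% of all probes had an adjusted p under 0.05. With 1 array left out in turn, that call held without sham C of either strain and was lost without any of the 4 others. The difference ran from 0.97 to 1.25 over the 6 fits. A further Dbp probe, of the same transcript, gave 0.41 (adjusted p = 0.336, limma). How well any probe matches the SPRET/EiJ sequence was not tested. With the slide as a block Dbp differed by 0.34 (adjusted p = 0.915, limma), and BALB/c sham glands at 8 weeks in place of 4 weeks gave 0.32. All SPRET/EiJ arrays lay on slide 3 and all 4-week BALB/c arrays on slides 1 and 2, so slide and strain coincide at 4 weeks. The blocked value therefore rests on the 2 BALB/c arrays of slide 3, both LDIR at 8 weeks. Replicate B of these had high lymphocyte markers. By the methods' rule (unadjusted p under 0.001 and more than 1.5-fold) 0 of 10 members passed, against 8.89% of probes. In LDIR glands, which share no array with the sham comparison, 0 of 10 passed by the methods' rule (5.67% of probes) and 0 by adjusted p (11.1% of probes). Dbp was 1.47 ± 0.38 higher in BALB/c (adjusted p = 0.055, limma) and Per1 1.06 lower, a difference of -1.06 ± 0.26 (adjusted p = 0.050, limma). By the further Dbp probe, strain means were closer, 5.67 against 4.93, where the main probe had 5.94 against 4.47. Levels of that further probe in A, B and C were 5.43, 5.95 and 5.63 in BALB/c and 4.22, 5.19 and 5.39 in SPRET/EiJ. Without SPRET/EiJ LDIR A, 5 members had an adjusted p under 0.05 (limma), where 19.9% of probes did. Arntl at 1.66 and Dbp at 1.10 were higher in BALB/c, while the differences of Clock and Per1 were -0.90 and -1.20. The other member was Npas2, which was not well above background on the SPRET/EiJ arrays left and is given no size.

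With age, sham BALB/c glands showed no member past the thresholds from 2 to 4 weeks, where 3.04% of probes passed. Without sham 2wk B Nr1d1 passed, at 0.84, and without sham 4wk A Per3 did, at -1.33. From 4 to 8 weeks, 2 of 10 passed, against 13.7% of all probes. Arntl was 1.39 ± 0.54 higher at 8 weeks (unadjusted p = 0.043, adjusted p = 0.333, limma) and Nr1d1 fell by 0.95 on the log2 scale (SE 0.35, adjusted p = 0.311). Leaving out any array but sham 8wk C ended the call for Arntl, whose difference without that array was 1.98, and leaving out any of the 4-week arrays ended that for Nr1d1. Without sham 8wk A, the array with high lymphocyte markers, Arntl was 1.10, Nr1d1 was -0.63 and Cry1 passed at 0.87. When all 24 arrays were fitted together with a slide block, Arntl at 1.41 and Nr1d1 at -0.83 no longer passed, and Cry1 passed at 1.11, where 11.9% of probes did. In LDIR glands, from 4 to 8 weeks, Arntl was 1.29 ± 0.50 higher and was the 1 member past the thresholds, where 20.9% of probes passed. That call was lost without any array other than LDIR 8wk C, and Arntl ran from 0.81, without LDIR 8wk B, to 1.81. Without LDIR 8wk B, the array of high lymphocyte markers, Per1 passed at 1.00 and Nr1d1 at 0.75. Without LDIR 8wk A, Npas2 met the thresholds, but neither remaining 8-week array was well above background for it.

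All BALB/c arrays were then set together, 8 weeks against 2 and 4 weeks with the treatment as a term, a comparison added after the values were seen. It shares its arrays with those above. By adjusted p under 0.05 (limma), 5 of 10 members passed, against 26.5% of all probes. Arntl rose by 1.40 ± 0.28 (SE, adjusted p = 0.0013) and Cry1 by 0.52 ± 0.14 (adjusted p = 0.0093). Per3 fell by 1.00 (adjusted p = 0.017), Nr1d2 by 0.52 (adjusted p = 0.0045) and Dbp by 0.51 (adjusted p = 0.032). Without the 2 arrays of high lymphocyte markers, Arntl was 1.01, Cry1 0.52, Nr1d2 -0.34 and Per1 0.54, and these 4 passed, while Per3 at -0.70 and Dbp at -0.22 did not. In that fit 32% of all probes passed. Leaving out either of these 2 arrays alone ended the call for Dbp, and leaving out LDIR 8wk B ended that for Per3. With the slide as a block, Cry1 passed at 0.72 and Arntl, at 1.37, had an adjusted p of 0.070 (limma), where 8.79% of probes passed. Slide and age largely coincide, since all 2-week arrays lay on slide 1 and no 8-week array did. Other lists moved with age too: 7 of 8 immediate early genes and 4 of 6 glucocorticoid-induced genes had an adjusted p under 0.05 in the same fit, as did 5 of 6 white adipocyte markers, which were lower. Of 5 brown adipocyte markers 3 were lower. Of 6 mammary epithelium markers 2, of 5 macrophage markers 2 and of 5 skeletal muscle markers 1 were higher. Of 5 lymphocyte markers 2 passed and were higher, but their summed level was high only on sham 8wk A and LDIR 8wk B. On the other 8-week arrays it was 6.20 to 8.37, against 7.08 to 10.5 on the younger BALB/c arrays. The counts of these lists include the arrays of high lymphocyte markers. The part of the lists in the levels of the clock genes was not tested. Over the 6 BALB/c groups 0 of 10 members passed the moderated F test, against 8.65% of probes, with adjusted p = 0.0997 for Arntl (limma). Unadjusted, 4 members had a p under 0.05: Arntl, Per3, Cry1 and Nr1d2. Arntl passed after adjustment without replicate C of either 8-week group (0.024 and 0.039), and Per3 without sham 4wk B (0.027).

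Of 17 further clock genes, 5 had an adjusted p under 0.05 (limma) in the joint comparison with age, where 26.5% of all probes did. Among them the kinase Wee1 was 0.98 higher, the repressor Nfil3 0.67 higher, while Rora, an activator of Arntl, differed by -1.13, and Hlf and Tef, relatives of Dbp, by -0.72 and -0.46. The other comparisons are given by the methods' unadjusted rules. From 4 to 8 weeks in sham glands 2 passed upward and 4 downward, against 13.7% of probes, and 0 by adjusted p. In the strain comparison of sham glands Nampt passed, at -1.48 (lower in BALB/c), against 8.89% of probes. By adjusted p there were 3 of 17 (18.8% of probes), with Rorb at 1.18 and Arntl2 at -1.31. In that of LDIR glands Rorb at 1.28 and Arntl2 at -1.72 passed (5.67% of probes), and the same count of 2 had an adjusted p under 0.05. After irradiation, 2 passed, both at 4 weeks in BALB/c (4.83% of probes) and neither by adjusted p: Bhlhe40 differed by -0.75 and Usp2 by -0.77.

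Within groups, the slopes of all 6 negative limb genes on Arntl were below 0, but none passed after adjustment. Arntl varied most within the 8-week groups (SD 1.03 in sham, 1.01 in LDIR), against SD of 0.22 to 0.45 in the other BALB/c groups. The slopes therefore rest mainly on the 8-week arrays. All 6 white adipocyte and all 5 skeletal muscle markers also had slopes below 0, with medians of -0.47 and -3.13 against -0.33 for the negative limb and 0.05 for all probes. The 5 lymphocyte markers had slopes above 0 (median 1.28). No marker of these lists passed either, and their part was not tested. Over deviations of the 18 BALB/c arrays from their group means, the slope on Arntl was -0.52 ± 0.20 for Per3, -0.47 ± 0.17 for Nr1d1 and -0.34 ± 0.13 for Dbp (unadjusted p = 0.022, 0.017 and 0.019; adjusted p = 0.332, 0.327 and 0.329, limma). By adjusted p 0% of all probes passed, and 13.2% had an unadjusted p under 0.05. Without sham 8wk B, Nr1d1 passed, at -0.61 (adjusted p = 0.046, limma). Pearson's r and Spearman's rho were -0.60 and -0.67 for Per3, with p of 0.022 and 0.0080 by exact permutation within groups (46656 arrangements, 2-sided, 9 genes examined). For Dbp r was -0.64 (exact p = 0.115) and rho -0.57 (exact p = 0.064), and for Nr1d1 r was -0.63 (exact p = 0.124) and rho -0.58 (exact p = 0.078). Leaving out the 2 arrays farthest on Arntl gave -0.56, -0.60 and -0.68 for Per3, Dbp and Nr1d1, and leaving out the 2 arrays of high lymphocyte markers gave -0.47, -0.46 and -0.42. In both cases deviations were still taken from group means that include the arrays left out. These r are therefore not purely within the groups that remain. Within slide 1 (8 arrays) the levels of Arntl and Per3 had r = -0.37, and within slide 2 (8 BALB/c arrays) r = -0.84. For Dbp these were -0.59 on each slide and for Nr1d1 -0.53 and -0.30, over levels that keep the differences between groups. For Per1, Per2 and Nr1d2, r over deviations was -0.50, -0.22 and -0.50. It was -0.48, 0.02 and -0.47 without the 2 arrays farthest on Arntl, and -0.27, -0.02 and -0.24 without those of high lymphocyte markers. Over levels within slides 1 and 2, r was -0.12 and 0.43 for Per1, and 0.56 and -0.07 for Per2. For Nr1d2 it was -0.09 and -0.75. Npas2 (r = 0.10), Clock (-0.11) and Cry1 (0.10) showed little relation to Arntl.

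**Figure D4:**
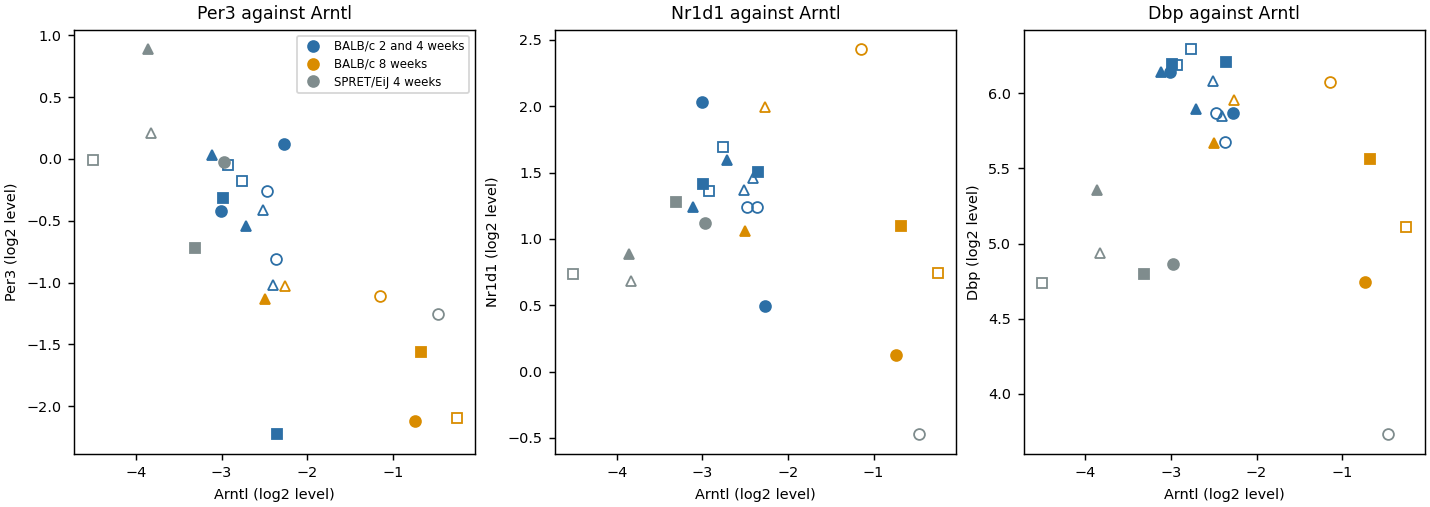
Per3, Nr1d1 and Dbp (y axes) against Arntl (x axes), all log2 levels, 1 point per array. Blue is BALB/c at 2 and 4 weeks, orange BALB/c at 8 weeks and grey SPRET/EiJ, filled is sham and open LDIR, and shapes are replicates; the arrays with Arntl above -2 have Per3 at -1.11 or lower, whereas LDIR 8wk A, with Arntl at -1.14, has Nr1d1 at 2.43 and Dbp at 6.08.

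Slopes on Dbp were added after the values were seen, and their calls were lost without the 2 BALB/c arrays of high lymphocyte markers. With all 18 arrays, Nr1d1, Nr1d2 and Per1 had slopes of 1.26 ± 0.21, 0.59 ± 0.14 and 0.83 ± 0.24, with adjusted p of 0.0022, 0.013 and 0.029 (limma), where 20.8% of all probes passed. All 6 white adipocyte markers rose with Dbp and all 5 lymphocyte markers fell in the same fit. Without the 2 arrays, 0 members and 1 probe of the whole table passed. The slopes were then 0.96 for Nr1d1 (adjusted p = 0.382), 0.57 for Nr1d2 (0.490) and 0.73 for Per1 (0.560, limma), and Nr1d1 had the 1 unadjusted p under 0.05. Among 22780 genes, those most like Arntl by r over the same deviations were Ccdc125 (0.88), Ccdc45 (0.88), Map3k1 (0.88), Gm8909 (0.87) and Polg2 (0.87), and the most opposite were Brca2 (-0.95), Hpdl (-0.89), ENSMUST00000167995 (-0.89), NAP028605-1 (-0.89) and Acer2 (-0.88). Most like Dbp were Aplp2 (0.99), Slc44a1, Paqr4, Fermt2 and Msrb3 (each 0.98). No clock gene was among them, and for Nr1d1, with r of 0.89 to Dbp, 96.4% of genes had an r at or below that value. These r include the 2 arrays of high lymphocyte markers and describe the 18 arrays only.

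In SPRET/EiJ, LDIR A differed from the other 5 arrays in 8 of the 10 genes beyond their whole range. Arntl was 10.3-fold the median of the others and Cry1 1.59-fold. Dbp, Nr1d1, Nr1d2, Per2, Per3 and Clock lay below all 5, with log2 differences from their median of -1.14 for Dbp, -1.36 for Nr1d1 and -1.25 for Per3. Of 31233 probes above background on all SPRET/EiJ arrays, 72.8% lay outside the range of the others on this array, against 14.2% to 48.8% for the others taken in turn. Most probes, and not the clock genes alone, were thus displaced on this array.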

How the data were processed

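The members and gene lists were chosen with earlier results of these data known. Per the file headers, the authors' arrays were scanned and read with Feature Extraction 10.10.1.1; the deposited intensity (processed signal) of each spot is background-subtracted. The authors' log2 values, made with GeneSpring by scaling to the 75th percentile, were deposited too and served as an alternative. Here outlier spots were left out, spots of a probe averaged, and log2 intensity minus the 75th percentile of each array was used. With outlier spots kept and each probe's median over all arrays subtracted, 99.7% of the authors' values differed by under 0.01. Between 57.1% and 72.6% of spots were well above background, and the number of arrays limits the precision. Each gene is its probe with the highest mean. The test was that of limma (version 3.58.1, R 4.3.3), with 3 arrays per group and Benjamini-Hochberg adjustment over all probes, which replaced the methods' t-test as the main test. The paper calls the 3 arrays of a group biological replicates. P-values weigh a difference against the spread between these arrays, part of which may be technical. Named genes were all members, further clock genes past a threshold and the 5 genes at each end of likeness to Arntl (the 5 highest for Dbp). The main test was unpaired throughout, and replicate letters entered only in alternatives with a replicate block. At 2 weeks in BALB/c, deviations of same-letter arrays correlated at 0.17, 0.48 and 0.17. Functions were tested on simulated data. A marker of the lymphocyte list is not reported here, and the values of that list were computed without it.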

Additional observations from a re-analysis of the deposited data

How the results depend on the processing

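Counts below are members, of 10, past the thresholds. For strain in sham glands, normexp gave 1 by the methods' rule and 2 by adjusted p; the methods' t-test, the slide block, the replicate block, the mean of the probes and BALB/c sham at 8 weeks gave 0 by adjusted p. For strain in LDIR glands, normexp and all 24 arrays in one fit gave 1 by the methods' rule, and by adjusted p normexp gave 3, quantile normalization 2, detected probes only 2 and all 24 arrays 3. For irradiation, all 24 arrays and the slide block gave 1 at 8 weeks and normexp 1 in SPRET/EiJ. From 2 to 4 weeks, normexp gave 2, and detected probes only, the slide block and the replicate block each 1. From 4 to 8 weeks in sham glands, normexp gave 4, detected probes only 5, all 24 arrays 4, and the methods' t-test, the slide block and the replicate block each 1; in LDIR glands quantile normalization gave 2 and the replicate block 0. In the joint comparison with age the slide block gave 1, the F test under normexp 2, and Dbp as the covariate 3, or 0 without the 2 arrays of high lymphocyte markers. With Arntl alone as the positive limb, the limb score differed between 8 and 4 weeks by 1.81 in sham and 1.41 in LDIR glands, against 0.86 and 0.46. The causes were not tested. Outside the 2-week groups the replicate letters share only a letter, with correlations of both signs, and at 2 weeks the block left the count at 0.

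With each array left out in turn, counts ran from 0 to 0 (strain in sham glands by the methods' rule, irradiation at 2 weeks and the 3 differences of effects), 0 to 1 (strain in sham glands by adjusted p, strain in LDIR glands by the methods' rule, irradiation at 4 and 8 weeks and in SPRET/EiJ, 2 to 4 weeks, the F test and the slope on Arntl), 0 to 5 (strain in LDIR glands by adjusted p), 0 to 3 (4 to 8 weeks, sham), 0 to 2 (4 to 8 weeks, LDIR) and 3 to 5 (joint comparison). The limb score difference ran from 0.49 to 1.42 in sham and from 0.051 to 0.84 in LDIR glands. No value of a called member changed sign. A second Arntl probe could not be tried, as the array holds 1. Npas2, near background, is the member that the arrays measure least.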
